A study of Mus musculus with 10 samples.

Results

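Microglia are the resident macrophages of the brain, and in the mouse striatum they form a cell population separate from the neurons. They survey the tissue through purinergic and chemokine receptors, depend on signalling through the colony-stimulating factor receptor Csf1r and on TGF-beta, make most of the complement C1q of the brain, and degrade engulfed material in lysosomes. Genes of this programme are widely used as microglial markers, although several of its lysosomal members are also used by other cells. The 30 genes described here were taken by symbol from a list of known microglial genes. The rule used no measured value, but earlier results of these data were known when the list was chosen. All 30 were present among the 32531 gene symbols of the count files.

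The libraries came from the whole striatum of adult mice of the Drd2-TRAP CP101 line, in which the Drd2 driver places an EGFP-tagged ribosomal protein, Rpl10a, in Drd2-expressing cells. In translating ribosome affinity purification (TRAP), the tagged polysomes are captured with antibodies to EGFP, and the RNA bound to them (the immunopurified fraction, IP) is sequenced. There were 5 IP libraries from mice that self-administered cocaine, 1 library of the RNA left unbound after the capture from cocaine mice, 3 IP libraries from mice that self-administered saline (numbered 1, 2 and 4), and 1 library of the input RNA from saline mice. All 10 libraries came from carriers of the transgene, the labels give the cell type as medium spiny neurons, and they do not say whether each library came from 1 animal or from a pool, so the spread between libraries may be partly technical. In the striatum Drd2 is used by indirect-pathway medium spiny neurons and also by cholinergic interneurons, so the tagged cells are not of 1 type.

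The IP libraries held 22975667 to 31631137 gene reads, the unbound library 20882691 and the input 18408782. The 30 microglia genes together took 2355 to 3868 reads per IP library, against 4678 in the unbound library and 5888 in the input. Levels are given as CPM, the reads of a gene scaled to a common library size, after TMM scaling over the 10 libraries, and 3 reads, used as the floor, correspond on the same scale to 0.0936 to 0.134 CPM in the IP libraries. The capture was visible in cell type markers: all 8 indirect-pathway neuron genes exceeded 2-fold over the matching unbound or input library in each IP library. All 10 astrocyte and all 10 oligodendrocyte genes were more than 2-fold lower in every IP library in both comparisons. The input and unbound libraries were sequenced on lane 1 and the IP libraries on lanes 4, 6 and 7, so lane and fraction cannot be told apart.

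The promoter windows of 4 members are shown, of which C1qc and Ctss were low in the IP and Cd68 and Ctsd were not. They are RefSeq promoter windows of the GRCm38.p6 build, from 250 bases before to 50 bases after the gene start, read on the gene's strand. Capitals mark GAGGAA on either strand, the core of sites bound by the macrophage factor PU.1 (encoded by Spi1).
C1qc, chr4:136892865-136893164, minus strand: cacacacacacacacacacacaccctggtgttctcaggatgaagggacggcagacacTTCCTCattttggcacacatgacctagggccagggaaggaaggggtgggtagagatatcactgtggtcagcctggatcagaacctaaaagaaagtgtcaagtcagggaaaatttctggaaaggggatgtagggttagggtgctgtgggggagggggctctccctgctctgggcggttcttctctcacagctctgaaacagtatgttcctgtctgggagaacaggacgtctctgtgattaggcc
Ctss, chr3:95526536-95526835, plus strand: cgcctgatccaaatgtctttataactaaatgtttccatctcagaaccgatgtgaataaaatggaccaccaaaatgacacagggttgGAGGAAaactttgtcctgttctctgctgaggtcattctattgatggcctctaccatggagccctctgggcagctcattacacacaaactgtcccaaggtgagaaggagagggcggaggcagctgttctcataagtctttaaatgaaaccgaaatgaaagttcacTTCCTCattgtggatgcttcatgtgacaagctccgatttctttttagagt
Cd68, chr11:69666121-69666420, minus strand: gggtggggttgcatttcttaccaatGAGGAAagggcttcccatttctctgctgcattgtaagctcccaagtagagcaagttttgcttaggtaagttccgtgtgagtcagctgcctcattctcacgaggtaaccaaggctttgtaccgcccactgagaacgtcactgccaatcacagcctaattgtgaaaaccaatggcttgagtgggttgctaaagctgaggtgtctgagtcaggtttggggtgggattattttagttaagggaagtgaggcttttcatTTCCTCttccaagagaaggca
Ctsd, chr7:142387778-142388077, minus strand: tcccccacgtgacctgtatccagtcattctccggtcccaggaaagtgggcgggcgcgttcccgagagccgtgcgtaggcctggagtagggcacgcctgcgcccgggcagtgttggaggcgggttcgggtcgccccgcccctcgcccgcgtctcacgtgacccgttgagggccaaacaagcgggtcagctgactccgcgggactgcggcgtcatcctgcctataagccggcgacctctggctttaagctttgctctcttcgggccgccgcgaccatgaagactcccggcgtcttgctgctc
Promoter windows were found for 24 of the 30 members. The longer form GAGGAAGT was present on either strand in 4 of these 24 (16.7%), in C1qc, Cd53, Ctss and Hpgds, and in 3.28% of all 27025 windows. The shorter GAGGAA, which is contained in it, was present in 14 of 24 (58.3%) and in 28.3% of all windows. The Cd68 window holds the shorter form on both strands and the Ctsd window holds neither. The windows of Cx3cr1, P2ry12 and Mertk, which were low in the IP, hold neither form as well. These are matches of letters in a short window, not measured binding.

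**Figure D1:**
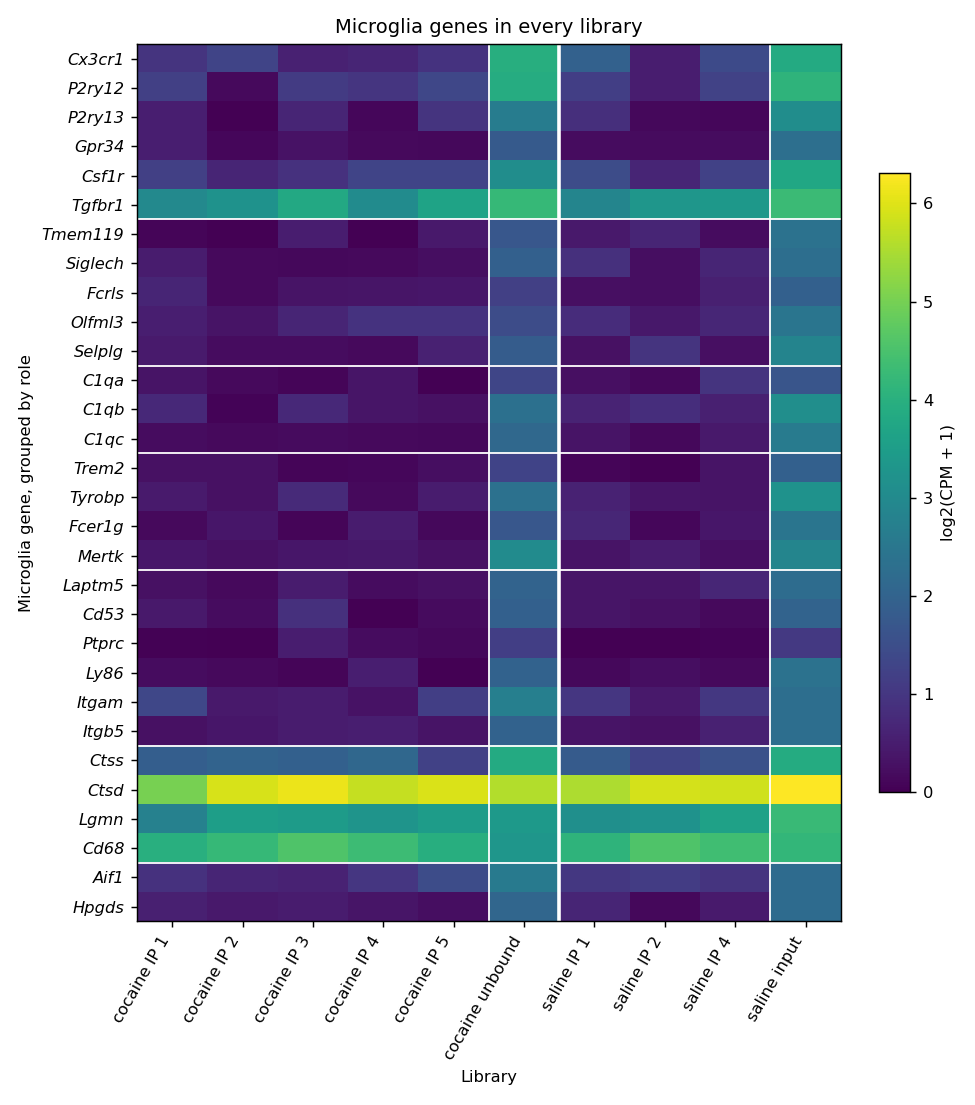
Level of the 30 microglia genes in each of the 10 libraries as log2(CPM + 1), with genes in rows grouped by role and libraries in columns. Ctsd, Cd68, Lgmn and Tgfbr1 are the brightest rows across the IP columns, and the other members are brighter in the unbound and input columns than in the IP columns.

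In saline mice, 24 of the 30 members were more than 2-fold lower in every IP library than in the input, and in cocaine mice 21 of the 30 were more than 2-fold lower in every IP library than in the unbound fraction. Among all genes that averaged 1 CPM or more over the libraries compared, 11.8% met this rule in saline IP against input and 9.85% in cocaine IP against unbound. Of the members that averaged 1 CPM or more, 8 of 12 met the rule in cocaine IP and 21 of 25 in saline IP, and with no filter on level 9.05% of all genes met it in cocaine IP and 10.5% in saline IP. More than 2-fold higher in every IP library were 0 of the 30 members in either comparison, against 3.73% of all genes in cocaine IP and 1.45% in saline IP. The median log2 ratio of the members was -1.85 ± 0.11 in saline IP against input (SD over 3 libraries), where that of all genes was 0.10, and -1.64 ± 0.08 in cocaine IP against unbound (SD over 5 libraries), where that of all genes was 0.16. These ratios are on the log2(CPM + 1) scale, which understates the difference for low genes. With 1 input and 1 unbound library neither comparison has a test, and in such bulk fractions the cell type that a read came from is not measured. Of the 30 members, 25 reached the mean of 1 CPM in the saline comparison and 12 in the cocaine comparison, but only 9 and 7 reached it in the IP libraries alone, so the remainder passed through their level in the input or unbound library. Of those reaching it in the IP libraries alone, 5 of 9 were lower in saline mice and 3 of 7 in cocaine mice. The share of all genes under this filter was not computed, so these counts have no like background.

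Of the 6 surface receptors through which microglia sense neurons, injury and growth factors, 5 met the 2-fold rule in each comparison. Cx3cr1, the receptor of the neuronal chemokine fractalkine (chr9:119901616-120069879 on mm10), had 0.936, 1.43, 0.495, 0.565 and 0.892 CPM in the cocaine IP libraries 1 to 5, against 14.4 CPM in the unbound library. In saline mice it had 2.88, 0.429 and 1.68 CPM in IP libraries 1, 2 and 4, against 13.5 CPM in the input. Every IP library thus lay below its reference, while the cocaine and saline IP values overlapped. The mean log2 ratio of Cx3cr1 was -3.07 ± 0.28 in cocaine IP against unbound and -2.56 ± 0.73 in saline IP against input.

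P2ry12, the purinergic receptor that directs microglial processes towards ADP (chr3:59216272-59262871), had 1.28, 0.113, 1.16, 0.969 and 1.52 CPM in the cocaine IP libraries and 14.0 CPM in the unbound library. It had 1.27, 0.429 and 1.37 CPM in the saline IP libraries and 16.1 CPM in the input. The value of cocaine IP 2 rested on 3 reads, and the other IP libraries were within the same low range in both treatments. Its mean log2 ratio was -2.96 ± 0.46 in cocaine IP against unbound and -3.11 ± 0.41 in saline IP against input. Its neighbour P2ry13, a related ADP receptor, had 0 reads in cocaine IP 2 and 2 reads in cocaine IP 4 and saline IP 4, against 122 reads in the unbound library and 155 in the input. Gpr34, a receptor for lysophosphatidylserine, had 2 to 14 reads in the 8 IP libraries, 57 in the unbound library and 82 in the input.

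Csf1r, the receptor on which microglial survival depends (chr18:61100598-61132149), had 1.28, 0.566, 0.859, 1.45 and 1.47 CPM in the cocaine IP libraries and 7.47 CPM in the unbound library. It had 1.74, 0.572 and 1.34 CPM in the saline IP libraries and 12.6 CPM in the input. All 8 IP values lay below both references, and the treatments overlapped. Its annotated exons share 873 bases with Hmgxb3 on the opposite strand, and whether counting used strand is not given in the sources used here.

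Tgfbr1, a type I receptor for TGF-beta (chr4:47353222-47414931), kept higher levels than the other receptors. It had 6.89, 8.26, 13.05, 7.30 and 11.5 CPM in the cocaine IP libraries and 17.6 CPM in the unbound library. It had 6.34, 8.94 and 9.32 CPM in the saline IP libraries and 18.6 CPM in the input. All 8 IP values were below both references, yet 2 cocaine and 2 saline libraries were within 2-fold of them on the log2(CPM + 1) scale. Pooled over libraries, the Tgfbr1 level in the IP was 53.4% of unbound (95% interval 47.7 to 59.8) and 43.6% of input (38.4 to 49.5). These intervals are exact Poisson intervals and, like all those below, cover counting error only.

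**Figure D2:**
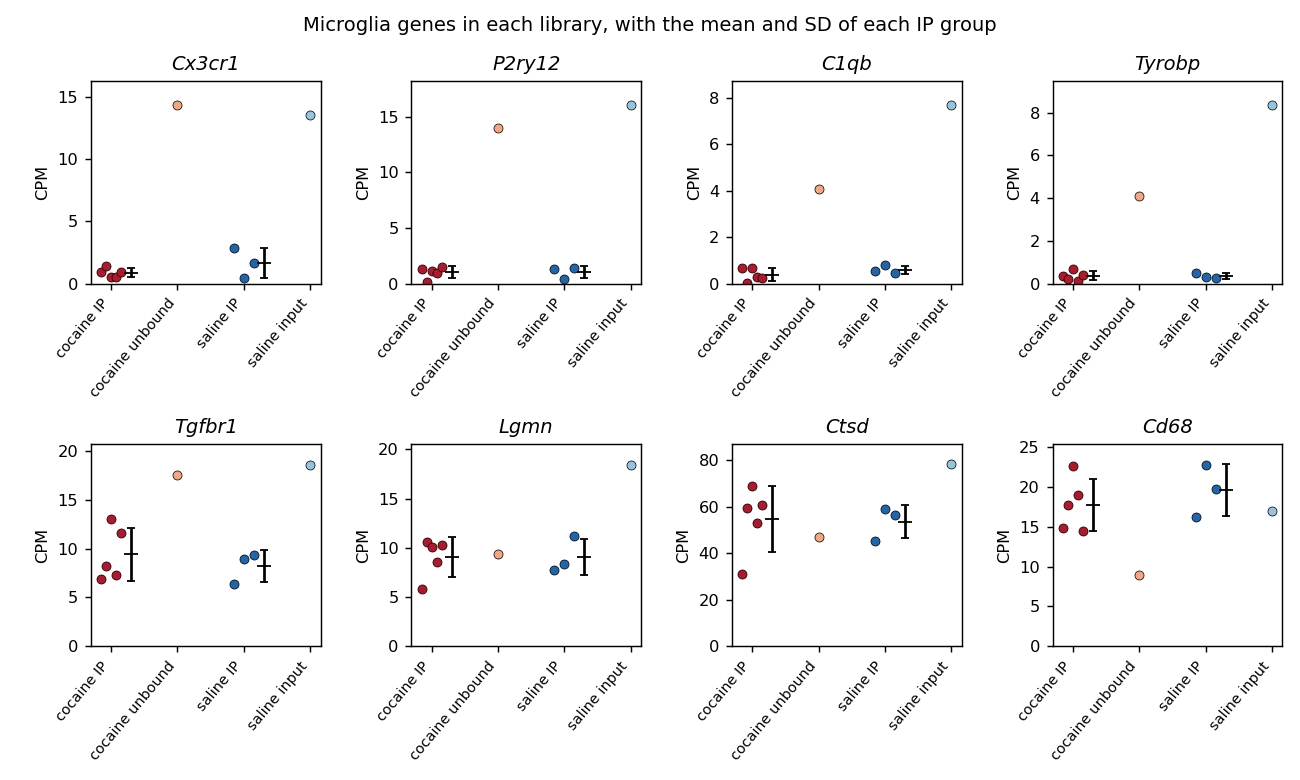
CPM of 8 microglia genes in each library on a linear axis from 0, with the mean and SD beside each IP group. Cx3cr1, P2ry12, C1qb and Tyrobp sit near the bottom in all 8 IP libraries, whereas Ctsd and Lgmn lie around the unbound value and the IP values of Cd68 all lie above its unbound value of 8.93 CPM.

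Among the surface and secreted proteins that mark homeostatic microglia, all 5 members were more than 2-fold lower in every saline IP library and 3 of 5 in every cocaine IP library. Tmem119, a transmembrane marker of resident microglia (chr5:113793729-113800516), had 0.0624, 0, 0.429, 0 and 0.357 CPM in the cocaine IP libraries and 2.29 CPM in the unbound library. It had 0.349, 0.572 and 0.153 CPM in the saline IP libraries and 4.16 CPM in the input. Cocaine IP 2 and 4 held no Tmem119 read, which at 3 reads allows up to 0.113 and 0.121 CPM. Siglech, a sialic-acid-binding lectin (chr7:55768178-55778925), had 0.405, 0.113, 0.0991, 0.121 and 0.178 CPM in the cocaine IP libraries and 2.85 CPM in the unbound library. It had 0.824, 0.179 and 0.573 CPM in the saline IP libraries and 3.87 CPM in the input. Cocaine IP 1 stood above the other 4 cocaine libraries, each of which held 3 or 4 reads, and the treatments overlapped at saline IP 2. Selplg, the selectin ligand PSGL-1 (chr5:113818536-113832644), had 0.374, 0.151, 0.165, 0.121 and 0.490 CPM in the cocaine IP libraries, against 2.59 CPM in the unbound library. Its saline IP values were 0.222, 0.930 and 0.191 CPM, against 6.19 CPM in the input, so saline IP 2 alone was above all cocaine libraries.

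Olfml3, a secreted olfactomedin-like protein, Fcrls, an Fc-receptor-like scavenger, and Trem2 met the 2-fold rule in saline IP against input. In cocaine IP against unbound they did not. Trem2 was nevertheless 10.8% of unbound in cocaine IP (5.96 to 19.3) and 3.74% of input in saline IP (1.63 to 7.61). Its unbound level of 1.42 CPM limits the ratio on the log2(CPM + 1) scale. Olfml3 was 33.2% of unbound in cocaine IP (22.5 to 49.7) and 12.6% of input in saline IP (8.69 to 18.0). Fcrls was 24.4% of unbound (15.0 to 40.3) and 9.57% of input (5.63 to 15.8). Their own IP levels were close in the treatments, 0.608 ± 0.278 CPM in cocaine IP (SD, n = 5) and 0.554 ± 0.209 CPM in saline IP (SD, n = 3) for Olfml3, and the reference levels were 1.77 CPM in the unbound library and 4.45 CPM in the input. The unbound and input libraries are single and come from different treatments, so that difference was not tested.

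The 3 chains of complement C1q, which starts the classical complement pathway, lie side by side on chromosome 4 (C1qb at chr4:136880129-136886187, C1qc at chr4:136889804-136893065 and C1qa at chr4:136895917-136898803). C1qa had 0.249, 0.113, 0.0661, 0.283 and 0 CPM in the cocaine IP libraries and 1.51 CPM in the unbound library, and 0.190, 0.107 and 0.917 CPM in the saline IP libraries and 2.18 CPM in the input. Saline IP 4, with 24 reads, was the only IP library within 2-fold of its reference on the log2(CPM + 1) scale in saline mice, which left C1qa outside the rule there. C1qb had 0.655, 0.0377, 0.661, 0.283 and 0.223 CPM in the cocaine IP libraries and 4.06 CPM in the unbound library, and 0.539, 0.787 and 0.458 CPM in the saline IP libraries and 7.69 CPM in the input. C1qc had 0.156, 0.113, 0.132, 0.121 and 0.0892 CPM in the cocaine IP libraries and 3.41 CPM in the unbound library, and 0.254, 0.107 and 0.344 CPM in the saline IP libraries and 5.13 CPM in the input. C1qb and C1qc were thus low in all 8 IP libraries, and for each chain the treatments overlapped. C1qc was 3.66% of unbound (2.03 to 6.25) in cocaine IP and 4.55% of input (2.67 to 7.39) in saline IP, and C1qb was 9.78% (6.87 to 13.8) and 7.74% (5.53 to 10.7).

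The phagocytic receptors and their signalling adaptors were low throughout the IP libraries, with 3 of 4 lower in cocaine mice and 4 of 4 in saline mice by the 2-fold rule. Tyrobp (DAP12), the ITAM adaptor of Trem2 (chr7:30413760-30417585), had 0.374, 0.226, 0.694, 0.121 and 0.401 CPM in the cocaine IP libraries and 4.10 CPM in the unbound library. It had 0.507, 0.286 and 0.267 CPM in the saline IP libraries and 8.37 CPM in the input. All IP values were under 1 CPM and the groups overlapped. Trem2, the lipid-sensing receptor that signals through Tyrobp, had 0 to 7 reads per IP library, with 33 in the unbound library and 58 in the input. Fcer1g, the other ITAM adaptor, had 2 to 19 reads per IP library, with 53 in the unbound library and 93 in the input. Mertk, a receptor tyrosine kinase for apoptotic cells that astrocytes also use, was 3.85% of unbound (2.63 to 5.51) and 4.45% of input (2.75 to 6.92), among the lowest shares of the list.

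The leukocyte membrane proteins followed the same pattern, with 5 of 6 lower by the rule in each comparison. Ptprc (CD45), the phosphatase shared by all leukocytes, was the exception in both. It had 0 to 13 reads in the 8 IP libraries, 29 in the unbound library and 22 in the input. Pooled, it was 11.7% of unbound (6.30 to 21.5) and 1.10% of input (0.0266 to 6.78), so it missed the rule on the log2(CPM + 1) scale, on which its low reference levels limit the ratio. Cd53, Laptm5 and Ly86 had 0 to 25, 3 to 16 and 0 to 11 reads per IP library, against 66 to 70 in the unbound library and 62 to 86 in the input. Itgam (CD11b), a subunit of complement receptor, was 13.5% of unbound (10.3 to 17.6) and 20.8% of input (14.9 to 29.1). Its exons share 3450 bases with the model Gm49368 on the same strand. If the authors' annotation held this model, reads there may have been set aside as ambiguous and left out, which was not tested. The integrin subunit Itgb5, which other brain cells also express, was 11.02% of unbound (7.37 to 16.3) and 8.25% of input (5.12 to 12.9). Of the cytoplasmic members, Aif1 (IBA1), the usual immunostaining marker, was 17.9% of unbound (13.8 to 23.2) and 29.3% of input (21.3 to 40.5), and Hpgds, a prostaglandin D synthase, 10.7% (7.25 to 15.6) and 10.1% (6.42 to 15.6).

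The lysosomal members divided. Ctss, a cathepsin typical of myeloid cells (chr3:95526786-95556403), had 2.68, 3.02, 2.81, 3.31 and 1.34 CPM in the cocaine IP libraries and 13.5 CPM in the unbound library. It had 2.54, 1.47 and 1.95 CPM in the saline IP libraries and 13.8 CPM in the input. Its IP values were low in both treatments, cocaine IP 5 was the lowest, and the groups overlapped. Ctss amounted to 19.8% of unbound (17.0 to 23.1) and 14.5% of input (11.9 to 17.6).

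Ctsd, the aspartic protease cathepsin D of lysosomes in most cell types (chr7:142375911-142388038), was the most abundant member. It had 31.1, 59.5, 69.0, 53.0 and 60.8 CPM in the cocaine IP libraries and 47.1 CPM in the unbound library. It had 45.3, 58.8 and 56.4 CPM in the saline IP libraries and 78.2 CPM in the input. In cocaine mice 4 of 5 IP libraries lay above the unbound value and cocaine IP 1 below it, whereas all 3 saline IP libraries were below the input. The pooled level was 115% of unbound (108 to 122) and 67.9% of input (64.1 to 71.9), and without Ctsd the summed level of the other 29 members was 27.3% to 38.0% of unbound in the cocaine IP libraries and 23.3% to 26.7% of input in the saline IP libraries. Its exons share 808 bases with the model Gm49369 on the same strand.

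Lgmn, the asparaginyl protease legumain (chr12:102394084-102439813), had 5.80, 10.6, 10.1, 8.60 and 10.3 CPM in the cocaine IP libraries and 9.41 CPM in the unbound library. It had 7.76, 8.34 and 11.2 CPM in the saline IP libraries and 18.4 CPM in the input. The cocaine IP values lay on both sides of the unbound value, with cocaine IP 1 the lowest, and the saline IP values all lay below the input. Pooled, Lgmn was 95.1% of unbound (82.2 to 110) and 48.8% of input (43.1 to 55.3).

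Cd68, the lysosomal glycoprotein macrosialin (chr11:69664213-69666153), was the 1 member whose IP level exceeded its reference in both comparisons when libraries were pooled. It had 14.8, 17.8, 22.6, 19.0 and 14.5 CPM in the cocaine IP libraries and 8.93 CPM in the unbound library. It had 16.3, 22.8 and 19.7 CPM in the saline IP libraries and 16.9 CPM in the input. All 5 cocaine IP libraries were above the unbound library, and 2 of 3 saline IP libraries were above the input. The mean log2 ratio was 0.90 ± 0.25 in cocaine IP against unbound and 0.19 ± 0.23 in saline IP against input, the highest of the 30 members in each, and the pooled level was 200% of unbound (173 to 231) and 115% of input (102 to 129). The Cd68 gene starts 782 bases beyond the end of Eif4a1, a translation initiation factor gene on the same strand. Eif4a1 averaged 148 ± 16.3 CPM in cocaine IP (SD, n = 5), against 94.7 CPM in the unbound library, and 145 ± 12.4 CPM in saline IP (SD, n = 3), against 95.4 CPM in the input. The part of this neighbour in the Cd68 counts was not tested.

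Cd68, Ctsd, Lgmn and Tgfbr1 were set apart from the other members after their values were seen, so the following is a description without a test. The other 26 members had pooled IP levels of 3.66% to 33.2% of unbound (median 9.76%) and 1.10% to 29.3% of input (median 7.99%). Summed, these 26 had 14.8, 9.01, 13.05, 12.3 and 13.6 CPM in the cocaine IP libraries and 119 CPM in the unbound library, and 17.7, 9.62 and 15.0 CPM in the saline IP libraries and 153 CPM in the input. The summed level was lowest in library number 2 of each treatment. As a share of the reference it was 7.58% to 12.5% of unbound in cocaine IP and 6.30% to 11.6% of input in saline IP. The summed astrocyte markers were 5.24% to 9.72% of unbound and 2.83% to 10.2% of input, and the summed oligodendrocyte markers 4.39% to 9.21% and 4.57% to 10.4%. The part of RNA from uncaptured cells in the microglial values was not tested.

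**Figure D3:**
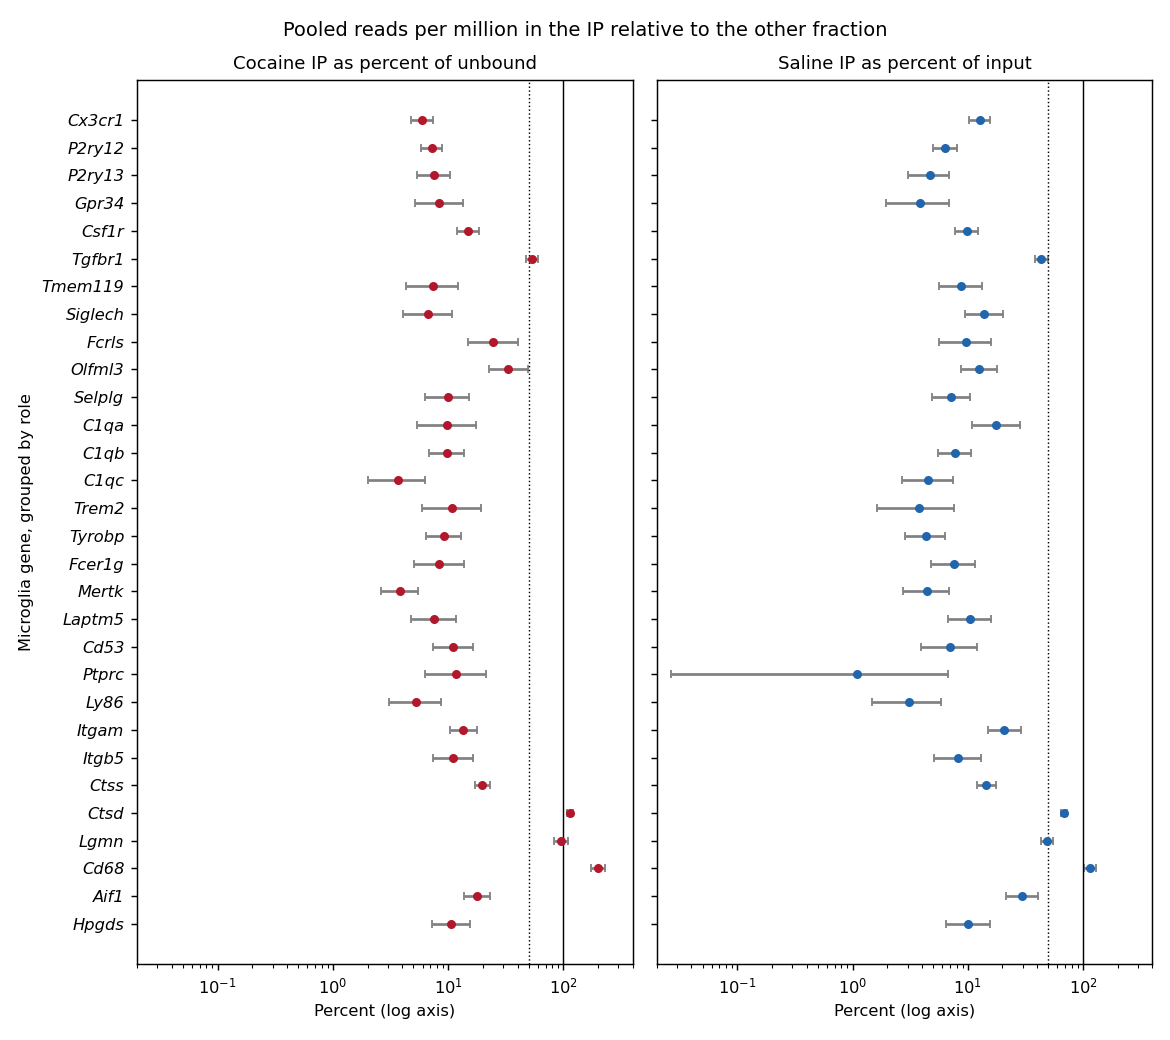
Pooled level of each member in the IP as a percent of the unbound library (left, 5 cocaine IP libraries) and of the input library (right, 3 saline IP libraries) on a log axis, with exact 95% Poisson intervals. The solid line marks 100% and the dotted line 50%, and Cd68, Ctsd, Lgmn and Tgfbr1 are the members near or to the right of the dotted line in both panels.

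Per kilobase of annotated exon, which allows levels of different genes to be compared, Ctsd was highest in every fraction, with 23.3 CPM per kb in cocaine IP, 20.03 in the unbound library, 22.8 in saline IP and 33.3 in the input. Cd68 came next in the IP, with 14.1 CPM per kb in cocaine IP and 15.6 in saline IP, against 7.11 in the unbound library and 13.5 in the input. In the input, Tyrobp (12.5 CPM per kb), Ctss (10.2), Lgmn (7.93), C1qb (7.07) and P2ry12 (6.31) followed, and Ptprc was lowest (0.0581). In the IP the order differed, and Tyrobp had 0.545 CPM per kb in cocaine IP and 0.530 in saline IP. P2ry12 had 0.395 CPM per kb in cocaine IP and 0.402 in saline IP.

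Near the read floor were 18 members with 3 reads or fewer in at least 1 IP library. These were P2ry12, P2ry13, Gpr34, Tmem119, Siglech, Fcrls, Selplg, C1qa, C1qb, C1qc, Trem2, Tyrobp, Fcer1g, Laptm5, Cd53, Ptprc, Ly86 and Hpgds. Of these, P2ry13, Tmem119, C1qa, Trem2, Cd53, Ptprc and Ly86 had 0 reads in at least 1 IP library. Cocaine IP 2 held 12 members at or under the floor and cocaine IP 1 held 2. The 12 members above the floor in all 8 IP libraries were Cx3cr1, Csf1r, Tgfbr1, Olfml3, Mertk, Itgam, Itgb5, Ctss, Ctsd, Lgmn, Cd68 and Aif1.

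Cocaine self-administration was then compared with saline in the IP libraries. Of the 30 members, 19 had enough reads for the test and 0 passed an adjusted p of 0.05 in edgeR's quasi-likelihood test with Benjamini-Hochberg adjustment over 13800 genes. Of all genes tested 0% passed (smallest adjusted p = 0.9998), and 2.14% (295 genes) had an unadjusted p under 0.05. DESeq2 also called 0 genes, and with the replicate block 0 genes passed and 903 had an unadjusted p under 0.05. The 11 members not tested for low counts were Gpr34, Fcrls, C1qa, C1qc, Trem2, Fcer1g, Mertk, Laptm5, Cd53, Ptprc and Ly86. Fold changes were negative in 11 and positive in 8 of the 19 members, with a median log2 fold change of -0.07, while 48.4% of all genes were negative, with a median of 0.01. For 0 members did every cocaine IP library lie below every saline IP library, as against 1.4% of all genes, and for 0 members did every one lie above, as against 0.913% of all genes. The summed level of the 30 members was 103 ± 19.7 CPM in cocaine IP (SD, n = 5) and 105 ± 9.78 CPM in saline IP (SD, n = 3).

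Siglech had the smallest p of the members in edgeR's quasi-likelihood test, with a log2 fold change of -1.46 (SE 0.62, unadjusted p = 0.0368, adjusted p = 0.9998), and it rested on 3 to 26 reads per IP library. Without saline IP 1 its log2 fold change was -0.97, and without cocaine IP 1 it had too few reads to be tested. It was the 1 member of the 19 with an unadjusted p under 0.05. For Cx3cr1 the log2 fold change was -0.95 (SE 0.53), and without saline IP 1, its highest library, it was -0.28. Ctss was 0.42 (SE 0.31), with 0.23 without saline IP 2 and 0.64 without saline IP 1. Selplg was -0.76 (SE 0.66), and 0.32 without saline IP 2. None of these differences passed the adjusted threshold.

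For the abundant members the intervals were narrower. The 95% interval of the log2 fold change ran from -0.50 to 0.24 for Cd68, -0.41 to 0.49 for Ctsd, -0.45 to 0.46 for Lgmn and -0.30 to 0.72 for Tgfbr1. For P2ry12 it ran from -1.33 to 1.29, for Csf1r from -1.05 to 0.82, for C1qb from -1.98 to 0.75 and for Tyrobp from -1.17 to 1.28, and a 2-fold lower level in cocaine IP lay inside all 4 of these intervals. Tmem119, at -1.05 (SE 0.92), had an interval from -3.06 to 0.95.

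**Figure D4:**
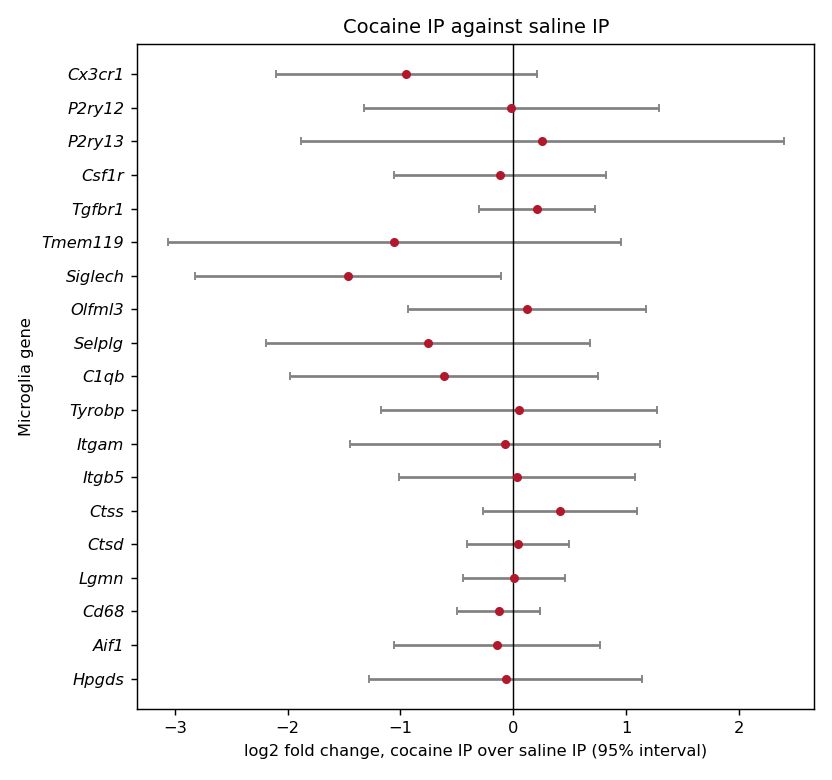
Log2 fold change of cocaine IP over saline IP for the 19 tested members, with 95% intervals of the edgeR fit without the replicate block. Siglech is the 1 member whose unadjusted interval does not reach 0, and Cd68, Ctsd, Lgmn and Tgfbr1 have the narrowest intervals.

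Cocaine IP libraries 3, 4 and 5 were sequenced on lane 4, cocaine IP 1 and 2 and saline IP 4 on lane 6, and saline IP 1 and 2 on lane 7, so lanes 4 and 7 each held 1 treatment. With lane as a term in the fit, 0 members passed, and the median log2 fold change of the 19 members was -0.31. On lane 6 alone, with 1 saline library, the summed level of the 26 low members was 14.8 and 9.01 CPM in cocaine IP and 15.0 CPM in saline IP.

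Other genes of microglial biology were examined as groups. Of 8 transcription factors of microglia, 4 were lower by the 2-fold rule in cocaine IP against unbound and 3 in saline IP against input. Among all genes averaging 1 CPM or more, the shares were 9.85% and 11.8%. Between treatments, 0 of the 6 transcription factors with enough reads passed the adjusted threshold in edgeR's quasi-likelihood test with Benjamini-Hochberg adjustment. Sall1 averaged 1.84 ± 0.79 CPM in cocaine IP, against 21.0 in the unbound library, and 1.04 ± 0.64 CPM in saline IP, against 18.0 in the input. Ikzf1 met the rule in both comparisons as well, whereas Mef2c, which striatal neurons also express, averaged 365 ± 50.02 CPM in cocaine IP, against 516 in the unbound library, and 341 ± 57.0 CPM in saline IP, against 427 in the input. Irf8 did not meet the rule either. It averaged 1.48 ± 0.33 CPM in cocaine IP, against 1.55 in the unbound library, and 1.91 ± 0.63 CPM in saline IP, against 2.13 in the input.

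Of 8 ligands for microglial receptors, 2 were lower by the rule in each comparison, against 9.85% of all genes in cocaine IP and 11.8% in saline IP. Csf1, a ligand of Csf1r, averaged 0.703 ± 0.217 CPM in cocaine IP, against 9.28 in the unbound library, and 0.522 ± 0.448 CPM in saline IP, against 9.58 in the input. Il34, the other Csf1r ligand, averaged 33.9 ± 8.18 CPM in cocaine IP, against 12.6 in the unbound library, and 35.5 ± 12.4 CPM in saline IP, against 19.2 in the input. Cx3cl1, the ligand of Cx3cr1, averaged 318 ± 100 CPM in cocaine IP, against 111 in the unbound library, and 305 ± 83.5 CPM in saline IP, against 226 in the input. Il34 and Cx3cl1 were thus higher in the IP than in the unbound library on average, the reverse of their receptors.

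Of 12 further lysosomal genes, 1 (8.33%) was lower by the rule in cocaine IP and 2 (16.7%) in saline IP. Among all genes averaging 1 CPM or more, 9.85% and 11.8% were lower, so these counts were near the shares of all genes. The median log2 ratios of the 12 lysosomal genes were 0.08 ± 0.33 and -0.19 ± 0.45. Ctsb, a cysteine cathepsin, averaged 397 CPM in cocaine IP, against 165 in the unbound library, and 387 CPM in saline IP, against 243 in the input, whereas Cst3, a cathepsin inhibitor abundant in glia, averaged 66.8 CPM against 166 and 68.1 CPM against 293. Of 12 genes of microglial activation, 5 (41.7%) were lower in each comparison, and Apoe, Cd9 and Cd63 had the highest input levels among those lower. Others of the list, such as Ctsb and Lpl, were higher in the IP on average. Lpl averaged 34.9 CPM in cocaine IP, against 17.7 in the unbound library, and 33.2 CPM in saline IP, against 21.6 in the input. Apoe, a lipid carrier made mainly by astrocytes and by activated microglia, averaged 4.64 CPM in cocaine IP, against 65.2 in the unbound library, and 5.77 CPM in saline IP, against 114 in the input. Of 16 other microglial surface genes, 5 (31.2%) were lower in each comparison, and P2rx7, Cd33 and Fcgr3 had the highest input levels among those lower. Only 6 of the 16 averaged 1 CPM or more in the saline comparison and 2 in the cocaine comparison. Cd86, Tlr2, Adgre1, Itgax, Slc2a5, P2ry6, Fcgr1 and Cd14 were under 1 CPM in both references, where a lower level cannot meet the rule. Mean log2 ratios were negative for 13 of the 16 in each comparison. Rgs10, the most abundant of the 16, went the other way. It averaged 334 CPM in cocaine IP, against 153 in the unbound library, and 318 CPM in saline IP, against 178 in the input. In all of these lists 0 genes passed the adjusted threshold between cocaine and saline IP in edgeR's quasi-likelihood test, as for the members.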

How the data were processed

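Whole-striatum RNA of Drd2-TRAP CP101 mice was sequenced in 8 IP libraries (5 cocaine, 3 saline), 1 unbound and 1 input library. The authors deposited raw read counts per gene symbol; per the submitters' processing notes, STAR 2.0.0e, HTSeq and the mm10 build were used, and the strand setting is not given in the sources used here. Reads in rows that name no gene (no feature: 12.9% to 14.4% of gene, no-feature and ambiguous reads in IP, 27.4% in unbound, 25.5% in input) were left out.

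CPM were scaled by TMM over the 10 libraries. IP libraries were compared with the single unbound or input library by the log2 ratio of CPM + 1 of each library, without a test, and called when every library passed 2-fold. Background shares are over genes averaging 1 CPM or more. Cocaine and saline IP were compared with edgeR 4.0.16 (R 4.3.3, limma 3.58.1; filterByExpr, quasi-likelihood, treatment only, Benjamini-Hochberg over all genes tested); the script was tested on simulated data. DESeq2 1.42.0, library-size scaling, no filter, lane, a replicate block, other priors and limits, and leaving out each library were tried as alternatives. No replicate pair of a group agreed within sampling noise.

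Libraries numbered 1, 2 and 4 occur in both treatments. Over 9679 genes averaging 5 CPM or more, deviations from the group means of same-numbered libraries correlated at 0.71, 0.63 and 0.32. The numbers were therefore taken to pair the libraries. This pairing comes from the data, since the labels do not explain the numbers. The main fit, with its SEs, p-values and intervals, does not use the pairing, which entered only the replicate block alternative.

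Members and gene lists were chosen with earlier results of these data known. All members were accounted for, and values in every library were given for the 6 highest in the input, the 2 highest and 2 lowest ratios of each IP comparison, the 4 smallest p-values, the C1q chains, Cx3cr1, P2ry12, Tmem119 and Csf1r. Mef2c, Irf8, Il34, Cx3cl1, Ctsb, Lpl, Rgs10 and Eif4a1 were named after their values were seen. Some genes of the lists are not reported here. Gene positions and exon overlaps are from GENCODE vM21 (mm10), which matched 30 of 30 symbols and may differ from the annotation the authors counted on.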

Additional observations from a re-analysis of the deposited data

Results flagged for a closer look

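Of 61 sets of 5 cocaine IP values checked for a library standing apart (levels and log2 ratios of the members), 3 had one, about as many as chance gives with Dixon's test at 95%. Siglech had 0.405 CPM in cocaine IP 1, above the 0.0991 to 0.178 CPM of the other cocaine IP libraries. Its log2 ratio to unbound was likewise -1.45 in cocaine IP 1 and -1.71 to -1.81 in the others. For Ctss, the log2 ratio to unbound was -2.63 in cocaine IP 5 and -1.75 to -1.97 in the others.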

How the results depend on the processing

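The number of members called lower depended on the prior and the limit, and the cause for single genes was not tested. In cocaine IP against unbound, 4 members were lower with a prior of 5 CPM and 3 with a 4-fold limit, against 6.08% and 3.94% of all genes, and in saline IP against input 8 and 10, against 6.19% and 4.53%. The genes called lower numbered 769 (prior of 5 CPM), 567 (mean of at least 5 CPM), 1913 (no filter on low values) and 499 (4-fold limit) in cocaine IP against unbound. In saline IP against input they numbered 798 (prior of 5 CPM), 677 (mean of at least 5 CPM) and 584 (4-fold limit). With a mean of 5 CPM or more these were 5.73% of genes in cocaine IP and 6.73% in saline IP. The median log2 ratio of the members was -3.03 (prior of 0.1 CPM), -0.61 (prior of 5 CPM) and -1.76 (library-size scaling) in cocaine IP, and -3.30, -0.77 and -1.99 in saline IP; library-size scaling moved the median of all genes to -0.01 in cocaine IP and -0.09 in saline IP, against 0.16 and 0.10 with TMM. Leaving out 1 library gave 21 to 22 lower members in cocaine IP and 24 to 27 in saline IP.

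Between cocaine and saline IP, 0 genes passed the adjusted threshold under any of the 14 alternatives. The replicate block on libraries 1, 2 and 4 left 14 members tested, with a median log2 fold change of -0.19 and a smallest adjusted p over all genes of 0.0599 (edgeR quasi-likelihood). It gave 903 genes with an unadjusted p under 0.05, against 295 without it, and 141 in the same 6 libraries unpaired; DESeq2 gave 363, the lane term 237 and no filter 540. The block changed no other call. Signs of fold changes were unstable, mostly of small ones but also of Selplg, which was -0.76 in the main fit. With the replicate block the log2 fold change was -0.19 for Ctsd, 0.14 for Hpgds, -0.14 for Lgmn, -0.14 for Olfml3 and -0.11 for Tgfbr1. In the same 6 libraries unpaired it was -0.16 for Ctsd, 0.043 for Hpgds, -0.12 for Lgmn, -0.079 for Olfml3 and -0.12 for Tgfbr1. With the lane term it was -0.30 for Ctsd, 0.11 for Hpgds, -0.91 for Itgb5, -0.43 for Lgmn, -0.75 for Olfml3, 0.51 for Selplg and -0.28 for Tgfbr1. Lgmn was -0.0043 with library-size scaling and -0.0033 without the low-count filter.

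Leaving out 1 library at a time, the log2 fold change ranged from -0.49 to 0.0024 for Aif1, -0.46 to 0.24 for Csf1r, -0.072 to 0.17 for Ctsd, -0.49 to 0.48 for Hpgds, -0.57 to 0.15 for Itgam and -0.19 to 0.46 for Itgb5. It ranged from -0.10 to 0.17 for Lgmn, -0.16 to 0.37 for Olfml3, -0.39 to 0.27 for P2ry12, -0.27 to 2.07 for P2ry13, -1.12 to 0.32 for Selplg and -0.33 to 0.41 for Tyrobp. The median over members ranged from -0.16 to 0.01. Depth also limits the members: 18 of 30 were at the floor of 3 reads in at least 1 IP library.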

Other observations

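Markers of other phagocytes and immune cells were mostly close to the read floor. Of 8 genes of perivascular macrophages, 0 met the 2-fold rule in either comparison. A gene with a reference under 1 CPM cannot be called lower on the log2(CPM + 1) scale, so this count says nothing on most of the list. Levels were under 1 CPM in the unbound library, the input and the average of both IP groups for 7 of the 8. The exception was Cd163, a haemoglobin scavenger receptor, which averaged 18.0 CPM in cocaine IP, against 12.99 CPM in the unbound library, and 18.1 CPM in saline IP, against 10.98 CPM in the input; it was named after its values were seen. The 7 blood leukocyte genes together had 0 to 0.178 CPM in the cocaine IP libraries, 0.388 CPM in the unbound library, 0.191 to 0.475 CPM in the saline IP libraries and 0.290 CPM in the input, and Ly6g was not analysed here. Of 10 inflammatory cytokine and response genes, 0 met the rule, and Ccl3 and Ccl4 had 0 reads in all 10 libraries. Most of these 10 genes were also under 1 CPM in the unbound library and the input, where a lower level cannot meet the rule. Of 10 endothelial and mural genes, 2 were lower in cocaine IP and 7 in saline IP. Cldn5, Pecam1, Abcb1a, Tek and Kcnj8 were under 1 CPM in the unbound library, and of these only Cldn5 and Pecam1 in the input. These counts thus had unlike limits, and the difference between them was not tested. Of 8 direct-pathway neuron genes, 7 were lower in cocaine IP and 8 in saline IP. Among all genes averaging 1 CPM or more, 9.85% were lower in cocaine IP and 11.8% in saline IP.

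Of the reads of the 3 C1q chains, C1qb took 45.2% in the unbound library (exact 95% binomial interval 38.3 to 52.2, 208 reads) and 51.3% in the input (45.6 to 57.0, 310 reads). The IP libraries held only 7 to 45 C1q reads each, and C1qa took 53.3% of them in saline IP 4 (37.9 to 68.3, 45 reads), against 16.8% in the unbound library and 14.5% in the input.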
